A study of Xenopus tropicalis with 8 samples.

Results

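The genes described here are the heme oxygenase gene hmox1, the peroxidase gene gpx1, the transcription factor gene nfe2l1, the malic enzyme gene me1, the glutathione transferase gene gstz1 and the efflux pump genes abcg2 and abcc4. They were taken as every probe whose transcript accession belongs to one of these symbols in RefSeq, which gave 7 probes, 1 for each of 7 genes, out of 5617 genes that could be named on the array. Their NCBI gene IDs are 100488303 for hmox1, 548457 for gpx1, 100151700 for nfe2l1, 100489590 for me1, 100145591 for gstz1, 734088 for abcg2 and 100491006 for abcc4. The study measured the transcripts of Xenopus tropicalis embryos, a frog used in toxicology, after exposure to the azo textile dye Disperse Yellow 7 (DY7). RNA came from embryos labelled as stage 12 to 46. The 4 control samples had no treatment and the 4 DY7 samples had 887 ppm of the dye; no vehicle, clutch or number of pooled embryos is given, so p-values measure only the spread between these samples, which may be technical.

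Cells meet reactive oxygen and foreign compounds with enzymes that remove peroxides and heme, with a supply of NADPH that keeps glutathione reduced, with transferases that attach glutathione and other groups, and with membrane pumps that export the products. In vertebrates many of these genes are controlled by transcription factors of the cap'n'collar family, of which NRF2 is the best known, and by the heme-sensing repressor BACH1, which holds heme oxygenase low until heme or oxidants accumulate.

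Each sample was read on its own single-colour Agilent array, and the arrays lay on 2 slides, each with 2 control and 2 DY7 samples. Levels are given as log2 of the processed signal minus the 75th percentile of the array, so a level of 0 equals that percentile, and levels of different probes cannot be set against each other. The 75th percentile lay between 162 and 327 on the control arrays and between 126 and 202 on the DY7 arrays. Control 2 had the smallest share of probes well above background, 51.6%, beside 64.0% to 75.9% on the other 7. Over the whole array 14.1% of the 20289 probes tested differed between the groups (limma adjusted p under 0.05, 9.06% higher and 5.07% lower in DY7), and the groups lay fully apart for 21.6%. The count of passing probes was 2867, and it was 5124 when same-numbered samples were treated as pairs (replicate block). The share of called probes that were higher was 64.1%, and it was 54.3% with quantile normalization, 43.8% with scaling to the array median and 4.73% without scaling.

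All 7 genes were measured and tested, and 1 of them, me1, changed in DY7 embryos (beside 14.1% of all probes, 9.06% higher); it rose 1.72-fold. The other 6 gave no call. At an unadjusted p under 0.05 there was 1 of the 7, again me1, beside 33.6% of all probes. Outside abcc4 the 95% intervals of the other 6 reached at most a 1.39-fold change in either direction. The median log2 fold change of the 7 was -0.01, beside 0.06 over all probes tested. The probes of hmox1, me1, abcg2 and abcc4 are named by the array design as specific and stand in 2 spots each, whereas those of gpx1, nfe2l1 and gstz1 are named as cross-hybridising, so other transcripts may add to their signal, and stand in 1 spot each.

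**Figure D1:**
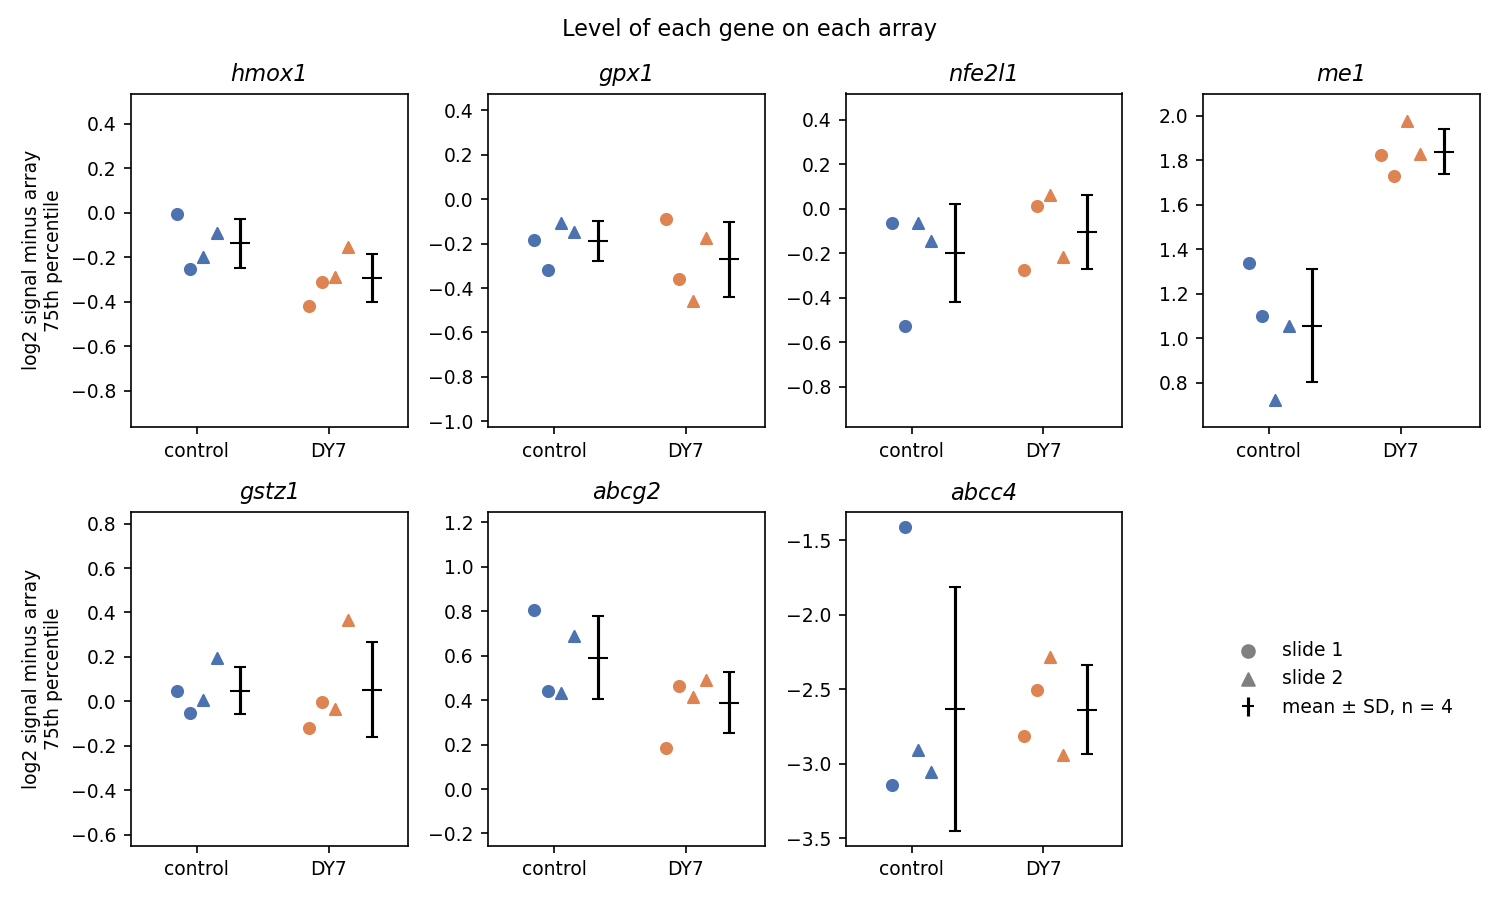
Level of each gene (log2 processed signal minus the 75th percentile of the array) on the 4 control and 4 DY7 arrays, with circles for slide 1, triangles for slide 2 and bars for the mean ± SD of each group (n = 4). The groups lie apart for me1 alone, and control 2 stands far above the other controls for abcc4.

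Neither antioxidant enzyme gene gave a call, and both means were slightly lower in DY7. The gene hmox1 encodes heme oxygenase, which splits heme into biliverdin, iron and carbon monoxide and is widely used as a readout of oxidative stress. Control samples 1 to 4 had levels of -0.01, -0.25, -0.20 and -0.09, while DY7 samples 1 to 4 read -0.42, -0.31, -0.29 and -0.15. Controls 1 and 4 were the highest and DY7 1 the lowest, and the groups overlapped. The mean was -0.14 ± 0.11 in controls and -0.29 ± 0.11 in DY7 (SD, n = 4 each), a log2 fold change of -0.16 ± 0.10 (SE, limma adjusted p = 0.305) with a 95% interval from -0.38 to 0.07. The upper end of that interval is a 1.05-fold rise. The DY7 array was the lower of the pair in 4 of 4 pairs of the same replicate number, by 0.41 in the first pair and by 0.06 to 0.09 in the others, and with that number as a block the adjusted p was 0.250.

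The gene gpx1 encodes a selenium-dependent glutathione peroxidase that reduces hydrogen peroxide. In controls 1 to 4 its level was -0.18, -0.32, -0.11 and -0.15, while DY7 samples 1 to 4 read -0.09, -0.36, -0.46 and -0.17. DY7 1 was the highest and DY7 3 the lowest of all 8 arrays, so the DY7 group spanned the controls. The log2 fold change was -0.08 ± 0.11 (SE, n = 4 per group, limma adjusted p = 0.627), with a 95% interval from -0.33 to 0.17, or from a fold of 0.795 to one of 1.12.

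The regulator nfe2l1 encodes NRF1, a cap'n'collar factor anchored in the endoplasmic reticulum that is known in mammals for driving proteasome genes. Control samples 1 to 4 had levels of -0.07, -0.53, -0.06 and -0.14, while DY7 samples 1 to 4 read -0.28, 0.01, 0.06 and -0.22. The single low value was that of control 2, and the groups overlapped. The log2 fold change was 0.09 ± 0.14 (SE, n = 4 per group, limma adjusted p = 0.651; 95% interval -0.21 to 0.40), and it was -0.01 without control 2 and -0.02 with scaling to the array median.

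The gene that rose was me1, the cytosolic malic enzyme, which turns malate into pyruvate and yields NADPH for glutathione reduction and for fatty acid synthesis. In controls 1 to 4 its level was 1.34, 1.102, 0.72 and 1.06, while DY7 samples 1 to 4 read 1.82, 1.73, 1.98 and 1.83. Every DY7 array lay above every control array, as for 12.7% of all probes tested, and the controls were spread more widely (SD 0.25) than the DY7 arrays (SD 0.10). The mean went from 1.06 in controls to 1.84 in DY7, a log2 fold change of 0.78 ± 0.14 (SE, n = 4 per group, limma adjusted p = 0.00942; 95% interval 0.48 to 1.09), or 1.72-fold with an interval from 1.39 to 2.13. By size the change lay at the 94.7th percentile of all probes tested, and by p it ranked 466 of 20289. Its 2 spots differed by at most 0.19 on the log2 scale on any array. The 4 pairs of the same replicate number gave rises of 0.48, 0.63, 1.25 and 0.77.

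Leaving out any 1 array left the me1 rise between 0.67 and 0.88 and called (limma adjusted p 0.0130 to 0.0318). The call was also kept with the replicate block (adjusted p = 0.0180). It was lost without scaling, where me1 stood at 0.31 ± 0.338 (SE, limma adjusted p = 0.546) and the median of all probes at -0.42. Scaling moves all probes of an array by the same amount. The distance of me1 above that median, 0.73, is therefore the same with and without it by construction and is no check of the rise. Within slide 1 alone, 2 arrays against 2, the difference was 0.56 (limma adjusted p = 0.260), and within slide 2 it was 1.01 (adjusted p = 0.163). The call was lost too with normexp background correction (0.68, limma adjusted p = 0.359), where 14 of all 20289 probes were called. It was kept with normexp after extreme local backgrounds had been repaired (0.61, limma adjusted p = 0.0279). On the authors' deposited log2 matrix the difference was 0.82 (limma adjusted p = 0.00449).

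**Figure D2:**
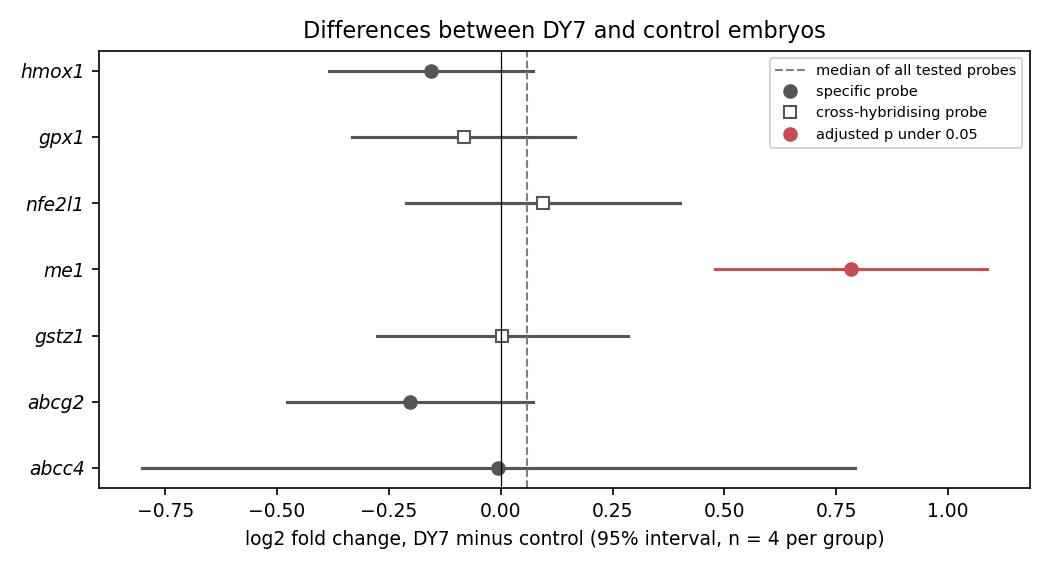
Log2 fold change (DY7 minus control) of each gene with its 95% interval from limma, 4 arrays per group; filled circles are specific probes, open squares cross-hybridising ones, red a limma adjusted p under 0.05, and the dashed line the median of all probes tested (0.06). The me1 interval runs from 0.48 to 1.09, the other 6 include 0, and that of abcc4 is the widest.

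Some markers of several tissues differed between the same groups, in lists chosen with earlier results of these data known. Of the called markers, serpina1 and nefl were named in the written design, whereas apob, fabp6, epor and krt78.6 stood only in the longer lists. Over all probes tested 14.1% were called, and the groups lay fully apart for 21.6%. Of 4 liver genes tested (5 of 18 listed had a named probe), 2 rose, the protease inhibitor gene serpina1 (0.75 ± 0.12) and the lipoprotein gene apob (0.55 ± 0.13), while alb read 0.23 ± 0.15 (limma adjusted p = 0.314) and the fibrinogen gene fgg -0.49 ± 0.26 (adjusted p = 0.214). The summed level of these 4, on a linear scale where 1 equals the 75th percentile of the array, was 77.6 to 109 in controls and 120 to 146 in DY7. Such a sum weights each probe by its brightness, and apob made up 87.8% to 90.7% of this one. Without apob it was 8.96 to 10.9 in controls and 13.5 to 17 in DY7, with serpina1, also called, the brightest gene left. The gut gene fabp6, the 1 intestine marker tested, rose by 1.202 ± 0.17, from levels of 14.6 to 22.7 on that linear scale to levels of 36.2 to 51.0. Of 2 red cell genes epor rose (0.41 ± 0.11), of 3 nervous system genes nefl fell (-0.48 ± 0.12), of 2 epidermis genes krt78.6 fell (-0.46 ± 0.10, cross-hybridising), and of 2 macrophage and neutrophil genes 0 were called. The summed level was 3.39 to 4.23 against 4.29 to 5.35 for the red cell genes, 40.3 to 47.4 against 31.4 to 37.1 for the nervous system genes, 1.38 to 1.53 against 1.03 to 1.28 for the epidermis genes and 7.99 to 14.9 against 11.1 to 28.2 for the macrophage and neutrophil genes, controls first. The brightest gene made up 63.4% to 72.5% of the red cell sum and 38.8% to 47.6% of the nervous system sum. It made up 61.6% to 81.5% of the epidermis sum and 71.3% to 91.6% of the macrophage and neutrophil sum. Without it the epidermis sums overlapped (0.256 to 0.335 in controls, 0.204 to 0.493 in DY7), and so did the macrophage and neutrophil sums. In each of these lists of 2 genes, 1 gene is left without the brightest. For the red cell list it is epor, already given as called, so that list staying apart is no further check. The nervous system sums also stayed apart without their brightest gene. Leaving out 1 array ended the call of apob in 5 of 8 cases, of epor in 6, of nefl in 4 and of krt78.6 in 3, and those of serpina1 and fabp6 in 0. All 6 marker calls were lost without scaling, with normexp and on either slide alone, those of apob and epor also with scaling to the array median and with repaired normexp. Without scaling the SE of all 6 was 0.338, so that loss is no check of single genes. The part of such markers in the me1 rise was not tested, and in RNA of embryos fewer cells of a type and less RNA per cell cannot be told apart.

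The conjugation gene gstz1 encodes the zeta-class glutathione transferase, which also acts as maleylacetoacetate isomerase in the breakdown of tyrosine. Control samples 1 to 4 had levels of 0.045, -0.05, 0.01 and 0.19, while DY7 samples 1 to 4 read -0.12, -0.00, -0.04 and 0.37. Array 4 was the highest in each group. The log2 fold change was 0.00 ± 0.12 (SE, n = 4 per group, limma adjusted p = 0.986), with a 95% interval from -0.28 to 0.28, and it was -0.10 without DY7 4 and -0.11 with scaling to the array median.

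The efflux gene abcg2 encodes the breast cancer resistance protein, a pump of the plasma membrane that exports many planar dyes and drugs in mammals. In controls 1 to 4 its level was 0.80, 0.44, 0.43 and 0.69, while DY7 samples 1 to 4 read 0.19, 0.46, 0.41 and 0.49. Controls 1 and 4 were the highest and DY7 1 the lowest, the same 3 arrays as for hmox1, while the other 5 lay between 0.41 and 0.49. The log2 fold change was -0.20 ± 0.12 (SE, n = 4 per group, limma adjusted p = 0.269), with a 95% interval from -0.48 to 0.07, so the upper end is a 1.05-fold rise. The paired differences were -0.62, 0.02, -0.02 and -0.20, and without DY7 1 the value was -0.14.

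The pump gene abcc4 encodes MRP4, which exports conjugates and cyclic nucleotides. Control samples 1 to 4 had levels of -3.14, -1.41, -2.91 and -3.06, while DY7 samples 1 to 4 read -2.81, -2.51, -2.28 and -2.94. Control 2 stood alone above all other arrays, and on that array the 2 spots of the probe read signals of 392 and 9.44, the second not well above background; neither carried an outlier flag. On the other 7 arrays both spots lay between 21.2 and 41.5 and differed by at most 0.23 on the log2 scale.

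With the spots averaged, abcc4 had a log2 fold change of -0.01 ± 0.36 (SE, n = 4 per group, limma adjusted p = 0.992; 95% interval -0.80 to 0.79). It was 0.40 without control 2 (limma adjusted p = 0.122), 0.68 when read by the second spot alone (adjusted p = 0.0946) and -0.69 by the first spot alone, where the last 2 values come from a check chosen after the spots had been seen. The 3 other controls lay below every DY7 array but DY7 4. Both spots of control 2 lay outside the range of the other arrays, at scaled levels of 1.27 and -4.10, so the 3 values that include control 2 depend on that array, and no direction is given for abcc4.

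**Figure D3:**
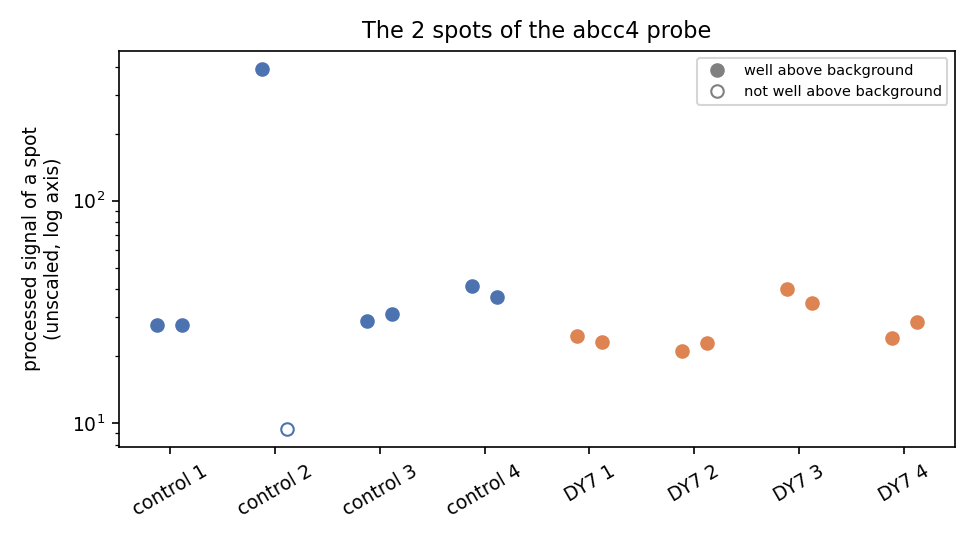
Processed signal (unscaled, log axis) of the 2 spots of the abcc4 probe on each array, filled where well above background. The spots of control 2 read 392 and 9.44, while those of the other 7 arrays lie between 21.2 and 41.5.

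Other genes of these pathways were taken from lists of 260 symbols in 8 groups, of which 53 had a named probe. Beside the 7 genes above, 46 were on the array and 27 could be tested. Of these 5 rose and 0 fell (18.5%, beside 14.1% of all probes in either direction and 9.06% higher in DY7). The median log2 fold change of the 27 was 0.05, beside 0.06 over all probes. The rises were at most 1.52-fold, and 1 of the 5, bach1, entered the test only through the DY7 arrays. With scaling to the array median 1 of the 5, abcf1, was called, and 0 were called without scaling, without the filter on dim probes, with normexp background correction or on either slide alone. Without scaling the SE of abcf1, bach1 and dpep1 was 0.338, beside 0.120, 0.118 and 0.128 with it. There krt78.6, at -0.94, was not called either (limma adjusted p = 0.0868), so the loss of smaller changes is no check of them. Catalase, the superoxide dismutases, nqo1, gclc, gclm, gsr, txnrd1, keap1 and nfe2l2 were listed and not analysed here, since no named probe matched them.

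**Figure D4:**
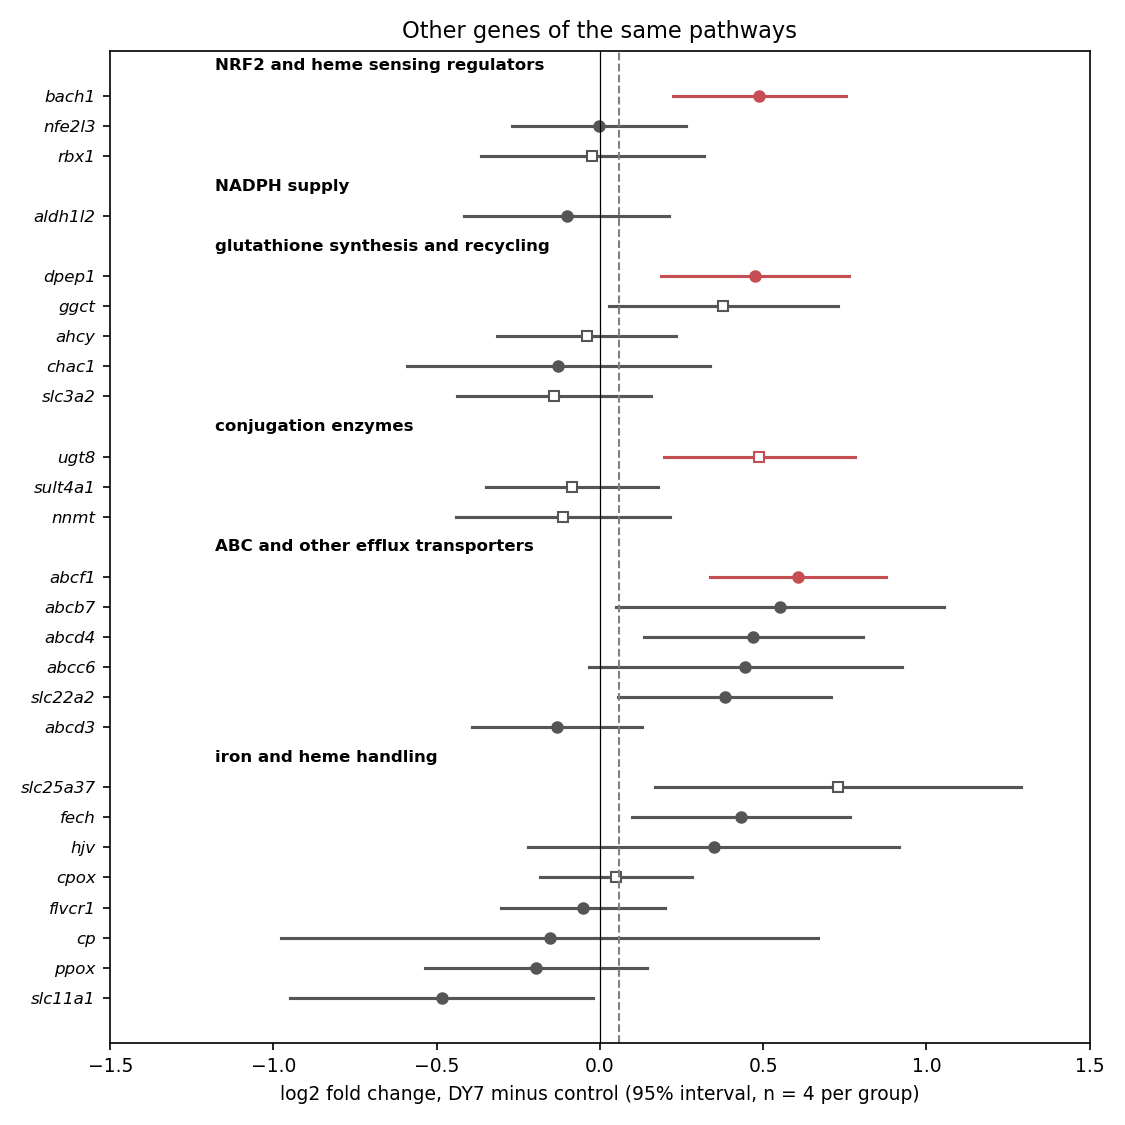
Log2 fold change (DY7 minus control) with 95% interval from limma for 26 of the 27 other pathway genes tested, 4 arrays per group; filled circles are specific probes, open squares cross-hybridising ones, red a limma adjusted p under 0.05, and the dashed line the median of all probes (0.06). The 4 red genes are bach1, dpep1, ugt8 and abcf1, between 0.48 and 0.61.

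Among regulators, 1 of 3 further genes was called higher (beside 14.1% of all probes called, 9.06% higher). This was bach1, which encodes the repressor of heme oxygenase, at 0.49 ± 0.12 (SE, n = 4 per group, limma adjusted p = 0.0279). Its probe was well above background on 3 of 4 control arrays and 4 of 4 DY7 arrays. It therefore entered the test only through DY7, the group where it read higher, and its p-value is a description. It was not tested where a probe had to be above background on all 8 arrays. The bach1 call was also lost with quantile normalization, with repaired normexp, on the authors' deposited log2 matrix, and without DY7 1, DY7 2, control 1 or control 4. The factor gene nfe2l3 stood at -0.00 and rbx1, a subunit of cullin ubiquitin ligases, at -0.02 on a cross-hybridising probe. In the NADPH list the 1 gene tested beside me1 was aldh1l2, a mitochondrial folate enzyme, at -0.10 ± 0.14 (adjusted p = 0.634).

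Among 5 glutathione genes 1 was called (beside 14.1% of all probes, 9.06% higher). This was dpep1, a dipeptidase that cleaves the product of glutathione breakdown, which rose by 0.48 ± 0.13 (SE, n = 4 per group, limma adjusted p = 0.0386). Its call was also lost without any 1 array other than DY7 1 or DY7 4. The cyclotransferase gene ggct, on a cross-hybridising probe, read 0.38 ± 0.16 (adjusted p = 0.125; 0.0358 with the replicate block), and slc3a2, the shared heavy chain of the cystine and amino acid carriers, -0.14 ± 0.13.

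Among 3 further conjugation genes 1 was called (beside 14.1% of all probes, 9.06% higher). This was ugt8, which rose on a cross-hybridising probe by 0.49 ± 0.13 (SE, n = 4 per group, limma adjusted p = 0.0380). It encodes the ceramide galactosyltransferase of myelin lipids and not a drug-conjugating enzyme. Its call was also lost with repaired normexp and without any of DY7 1, DY7 2, DY7 3, control 1 or control 4. The methyltransferase gene nnmt (-0.11 ± 0.15) and sult4a1, a brain sulfotransferase-like gene (-0.09 ± 0.12), both on cross-hybridising probes, gave no call.

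Among 7 further transporter genes, 2 rose (beside 14.1% of all probes called, 9.06% higher), 1 of which is described here. It is abcf1, which rose by 0.61 ± 0.12 (SE, n = 4 per group, limma adjusted p = 0.0146). It encodes an ABC protein without membrane spans that acts in translation. The abcf1 call was kept whichever 1 array was left out. The lysosomal transporter gene abcd4 read 0.47 ± 0.15 (adjusted p = 0.0638) and slc22a2, an organic cation carrier, 0.38 ± 0.14 (adjusted p = 0.102). Of these, abcd4 was called higher in 4 of 22 alternatives (limma adjusted p 0.0227 to 0.0493). They were quantile normalization, the filter on all 8 arrays, the authors' deposited log2 matrix and leaving out control 3.

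Of 8 further iron and heme genes 0 were called, beside 14.1% of all probes. At an unadjusted p under 0.05 there were 3, a share near the 33.6% of all probes. The mitochondrial iron importer gene slc25a37 read 0.73 ± 0.25 on a cross-hybridising probe (limma adjusted p = 0.0785). It read 0.49 without control 2 and 0.37 with repaired normexp. It was called higher in 2 of 21 alternatives, quantile normalization (0.58, limma adjusted p = 0.0457) and the authors' deposited log2 matrix (0.60, adjusted p = 0.0329). Its probe entered the test only through the DY7 arrays. The gene fech, which inserts iron into heme, read 0.43 ± 0.15 (adjusted p = 0.0787). It was called only without DY7 4 (0.53, adjusted p = 0.0447). The third, slc11a1, was named after its value was seen and read -0.48 ± 0.21 (adjusted p = 0.134). The list of tyrosine and phenylalanine breakdown held no tested gene but gstz1, and that of antioxidant enzymes none but hmox1 and gpx1. A further 19 listed genes were on the array and not tested, 9 of them well above background on 0 of 8 arrays, among these the cystine carrier slc7a11 and the pentose phosphate gene pgd.

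The patterns of the 7 genes over the 8 arrays were set beside those of 3429 other named genes, as a description, since arrays share their group, slide and signal. For me1 the 3 most alike were adh1a, an alcohol dehydrogenase (Pearson r = 0.976), gng10 (0.972) and saraf (0.970), with 73 genes over 0.9. All 3 were higher in DY7, by 0.59, 0.30 and 0.32, a direction that follows from choosing them for likeness to me1. For hmox1 they were kcnmb3 (0.947), LOC100495028 (0.939) and trpm4 (0.937), and for abcg2 vps26c (0.979), slc35f4 (0.945) and LOC100488911 (0.943). For gpx1 the second and the third were slc3a2 (0.929) and smg1 (0.924), and for nfe2l1 the 3 were ppcdc (0.968), LOC100486607 (0.966) and zbtb1 (0.964). For gstz1 they were or8u9 (0.90), LOC100496109 (0.887) and tusc2 (0.878). For abcc4 they were draxin (0.990), pank1 (0.982) and mmrn2 (0.976), a likeness that includes the single high value of control 2.

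**Figure D5:**
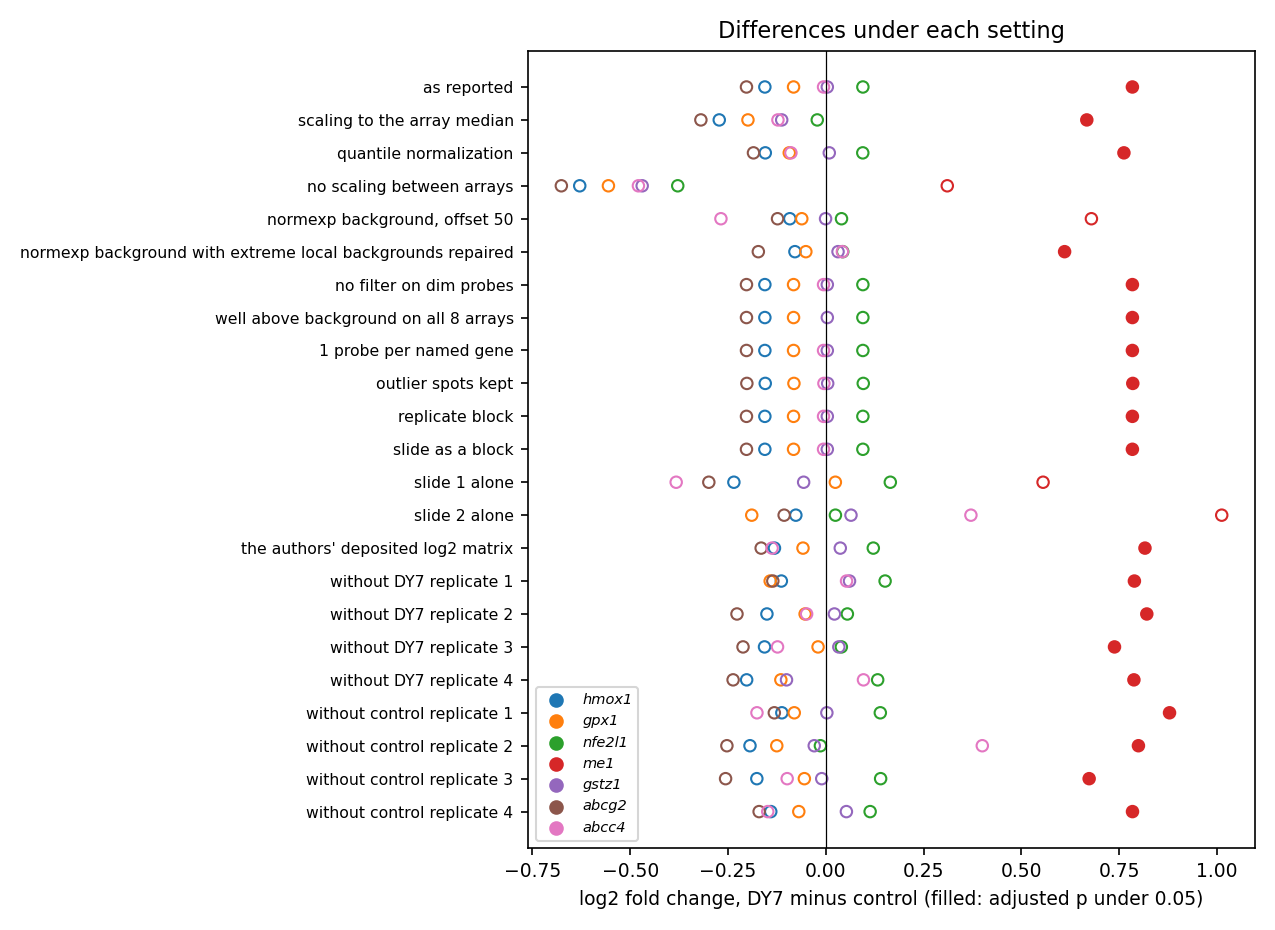
Log2 fold change (DY7 minus control) of the 7 genes under each processing setting and with each array left out; filled circles have a limma adjusted p under 0.05. The me1 value stays above 0 throughout, from 0.31 without scaling to 1.01 on slide 2 alone, and the other 6 genes have no filled circle.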

How the data were processed

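Scanner files were deposited with linear spot intensity, written by Feature Extraction 10.7.3.1 (slide 1) or 10.7.1.1 (slide 2) per the file headers. Processed values are background-corrected within each array and not scaled between arrays. The deposited matrix holds log2 values of the same spots (correlation with log2 processed intensity 0.986 or higher on every array; column medians 5.10 to 5.27), and no source used here says how the authors centred it.

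From the 45220 spots per array, 1417 control spots and any with an outlier flag were dropped. Spots of a probe were averaged as log2 and the 75th percentile of the 32899 probes was subtracted. A probe was tested where over 0.5 of its spots were well above background on all 4 arrays of a group (20321 probes, less 32 emptied on an array by flags). Accessions were matched without version to the RefSeq table of assembly UCB_Xtro_10.0, which named 5891 probes; the array was designed on JGI 4.1, per the file headers, so no coordinates are given. Groups were compared with limma 3.58.1 in R 4.3.3 (lmFit, eBayes, two-sided), and p-values were adjusted by Benjamini-Hochberg over all 20289 probes; intervals are unadjusted 95% ones. The fits were tested on simulated data with independent noise for each probe and array. Those data held no slide, pair or faulty array, so that test does not bear on such effects. The number of arrays limits the precision.

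Same-numbered arrays of the groups deviated together (correlations 0.306, 0.107, 0.455 and 0.449), so the replicate number was used as a block in an alternative. The highest correlation of each control array with a DY7 array of another number was 0.237, 0.0119, 0.305 and 0.0362. Same-numbered arrays also lay on the same slide, so pairing is not shown by these values. The named genes were every member, each called pathway gene, the 2 uncalled ones of smallest p per list and the 3 most alike per member; a listed gene was read by its brightest probe. The 7 genes and all lists were chosen with earlier results of these data known. The normexp alternative used the median spot signal with an offset of 50; its repaired form set local backgrounds above 2 times the array median to that median. Some genes that entered the fits and counts are not reported here by name. Sequences were not analysed here.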

Additional observations from a re-analysis of the deposited data

Results flagged for a closer look

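Samples far from the rest of their group of 4 were looked for in the 7 genes, the named pathway genes and the called tissue markers, 56 groups in all, by Dixon's test at 95%; chance alone marks about 1 group in 20, and 2 were marked. For abcc4, control 2 stood at -1.41 while the other controls lay between -3.14 and -2.91. For the neurofilament gene nefl, control 2 stood at 4.31 while the other controls lay between 3.94 and 3.99. Both values are of control 2, the array with the fewest probes well above background.

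Among tested probes with 2 unflagged spots (5536 to 5546 per array), 130 on control 2 (2.35%) had spots that differed over 4-fold, against 0 to 9 on each of the other 7 arrays, and all 23 that differed over 32-fold were on control 2. The abcc4 spots of control 2, 5.38 apart on the log2 scale, are among these 23. The median difference between spots was 0.122 on control 2 and 0.0662 to 0.106 on the others. The largest difference between the spots of hmox1, me1 or abcg2 on any array was 0.24.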

How the results depend on the processing

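Of the 7 genes, me1 alone was called in any alternative, and it stayed higher in all of them. Its call was lost without scaling (0.31), with normexp background correction (0.68), on slide 1 alone (0.56) and on slide 2 alone (1.01). The other 6 stayed uncalled; abcc4 was not tested where a probe had to be above background on all 8 arrays. The replicate block changed no call of the 7 genes.

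The count of all probes called, 2867, was 719 without scaling, 14 with normexp, 1497 with repaired normexp, 562 with no filter on dim probes, 471 with 1 probe per named gene (fewer probes tested), 5124 with the replicate block, 6 on slide 1 alone and 0 on slide 2 alone (fewer samples), and 1091 to 3324 with 1 array left out (lowest without DY7 2, highest without control 2). The share higher was 52.4% without control 2 and 73.8% without control 3, beside 64.1%. The 5 pathway genes called higher became 6 with quantile normalization, 6 on the authors' deposited log2 matrix and 7 with the replicate block. They became 1 with median scaling, 0 without scaling, 0 with normexp, 2 with repaired normexp, 0 with no filter and 0 on each slide. With 1 array left out their count was 1 to 6. The gene slc11a1, 1 gene, was called lower on the authors' deposited log2 matrix and without DY7 4 (0 to 1 with 1 array left out). The cause of these changes was not tested where none is named.

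These log2 fold changes changed sign, all uncalled there. For abcc4 the value was 0.0425 with repaired normexp, 0.37 on slide 2, 0.68 by its second spot and -0.18 to 0.40 with 1 array left out. For gpx1 it was 0.0245 on slide 1. For gstz1 it was -0.11 with median scaling, -0.47 without scaling, -0.000578 with normexp, -0.0566 on slide 1 and -0.10 to 0.0607 with 1 array left out. For nfe2l1 it was -0.0218 with median scaling, -0.38 without scaling and -0.0138 to 0.15 with 1 array left out. Without scaling, where all probes shifted to a median of -0.42, abcd4 read -0.00376, epor -0.0624, fech -0.0417, ggct -0.0951 and slc22a2 -0.0919. With normexp slc3a2 read 0.0198 and sult4a1 0.00514, and on slide 2 sult4a1 read 0.0560. For rbx1 the value was 0.0948 with repaired normexp, 0.0770 on slide 2 and -0.123 to 0.0689 with 1 array left out. For nfe2l3 it was 0.00794 with quantile normalization, 0.0152 with normexp, 0.0115 on slide 1, 0.0352 on the authors' deposited log2 matrix and -0.0669 to 0.0499 with 1 array left out. With no filter on dim probes the marker calls of apob, epor, nefl and krt78.6 were lost, and with the slide as a block that of epor (0.41, adjusted p = 0.0504). Signal over background limits abcc4, bach1, slc25a37 and slc11a1, each well above background on 3 of 4 control arrays. These genes entered the test only through the DY7 arrays.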

Other observations

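The levels of hmox1 and abcg2 ran together over the 8 arrays (Pearson r = 0.944, exact permutation p = 0.00057, 0.012 after Benjamini-Hochberg adjustment over the 21 pairs of the 7 genes; Spearman rho = 0.833, exact permutation p = 0.0154, 0.155 adjusted). The permutation treats the arrays as exchangeable, although they share group, slide and replicate number, so the p-values are a description. At a Pearson r over 0.9, hmox1 had 24 genes and abcg2 18 among the 3429 compared. The highest of these were above the r of the pair, kcnmb3 for hmox1 (0.947) and vps26c for abcg2 (0.979). After the group means had been subtracted r was 0.914. Without control 1 and DY7 1, the arrays farthest from the median of hmox1, r was 0.791. Control 4, with control 1 the highest for both genes, was kept in that value. It therefore does not show whether the relation holds without all of these arrays. The abcg2 levels of the remaining arrays lay between 0.41 and 0.49. The arrays' log2 75th percentile correlated with hmox1 at 0.743 and with abcg2 at 0.623, and its part in the relation was not tested; each slide held too few arrays for a value of its own. By Pearson r hmox1 with abcg2 was the 1 pair of the 21 that passed the adjusted threshold, and by Spearman rho 0 passed. The adjusted Spearman p of 0.155 (exact permutation) was the same for hmox1 with gstz1 or abcc4 and for gstz1 with abcg2 or abcc4.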
